A study of Sus scrofa with 32 samples.

Results

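The CD3 chains are the 4 signalling chains that travel with the T cell receptor, and their transcripts were followed here through T cells, innate-like lymphocytes and B cells of the porcine ileum and blood. The members were taken by symbol, CD3E, CD3D, CD3G and CD247, and make up 4 of the 25880 genes in the count matrices. Cells came from 2 mixed-breed pigs aged 7 weeks, labelled female (pig 1) and male (pig 2), with no treatment named. From each pig the ileum was dissected into a region with Peyer's patches (PP), a region without them (non-PP) and a full cross section (whole ileum), and blood mononuclear cells (PBMC) were taken as well, which gave 8 libraries of 3′ single-cell RNA-seq. The ileal suspensions had been enriched for live lymphocytes by the authors. In all, 48629 cells were used, 35386 from ileum and 13243 from blood.

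CD3ε (CD3E) forms a dimer with CD3δ (CD3D) and another with CD3γ (CD3G), and CD3ζ (CD247) joins as a homodimer. All of them carry immunoreceptor tyrosine-based activation motifs in their cytoplasmic tails, which the kinase LCK phosphorylates and to which ZAP70 then binds. T cell receptors of the αβ and the γδ kind reach the surface together with CD3 chains, which therefore serve as pan-T cell markers, whereas natural killer cells use CD3ζ, alone or with FCER1G, to signal from activating receptors such as CD16 and NKp46. Pigs are known for abundant γδ T cells in blood and gut, which fall into a CD2+ and a CD2- kind.

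In the RefSeq annotation of Sscrofa11.1 the genes for ε, δ and γ stand next to each other on chromosome 9. CD3E (ENSSSCG00000040140) lies at chr9:45619730-45633972, CD3D (ENSSSCG00000015093) at chr9:45640475-45644153 and CD3G (ENSSSCG00000015094) at chr9:45645243-45656779, so that the 3 genes fit within 37050 bases. CD247 (ENSSSCG00000006309) lies on another chromosome, at chr4:83494266-83586887.

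To ask where each chain was expressed, cells were gated on UMIs (counted transcript molecules) of other genes, so that no chain took part in choosing the cells in which it was then measured. Cells with a CD4, a CD8B or a TRDC (T cell receptor δ constant) UMI made up the T gates, each with no UMI of the others, and the TRDC gate was split by CD2. Innate-like cells resembling group 1 ILCs, the class that holds natural killer cells, were gated on TYROBP and KLRK1 with no UMI of a set of genes of other cells, CD4, CD8B, TRDC, CD79B, IL22 and CD14 among them. Cells with at least 2 IL22 UMIs and none of CD4, CD8B, TRDC, CD79B or CD14 made up the IL22 gate, meant for group 3 ILC-like cells. B cells had at least 3 CD79B UMIs. The ileum gave 763 CD4, 2577 CD8B, 3283 TRDC CD2+, 1025 TRDC CD2-, 1442 TYROBP KLRK1, 284 IL22 and 10955 CD79B cells, and the blood 624, 1191, 521, 763, 1678, 0 and 2140.

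Libraries held 21134542 to 40111934 UMIs, and each shared 21 to 80 cell barcodes with another, or 0.556% to 1.23%. UMIs of Y-linked genes went against 1 label. They stood at 0.69 to 2.57 per 1000000 UMIs (CPM) in the other 3 libraries of pig 1 and at 115 to 225 in those of pig 2, and 202 CPM was counted under the label whole ileum pig 1. The CD3 chains in the ileal TYROBP KLRK1 gate against T gates are therefore given with and without that library. Other results from the ileum include it unless stated. Levels below are UMIs of a chain per 1000000 UMIs of the gated cells, and comparisons are log2 fold changes ± SE from edgeR on sums per pig, with 2 pigs to a group and adjusted p over all 10084 genes tested. A gene is called at an adjusted p under 0.05.

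**Figure D1:**
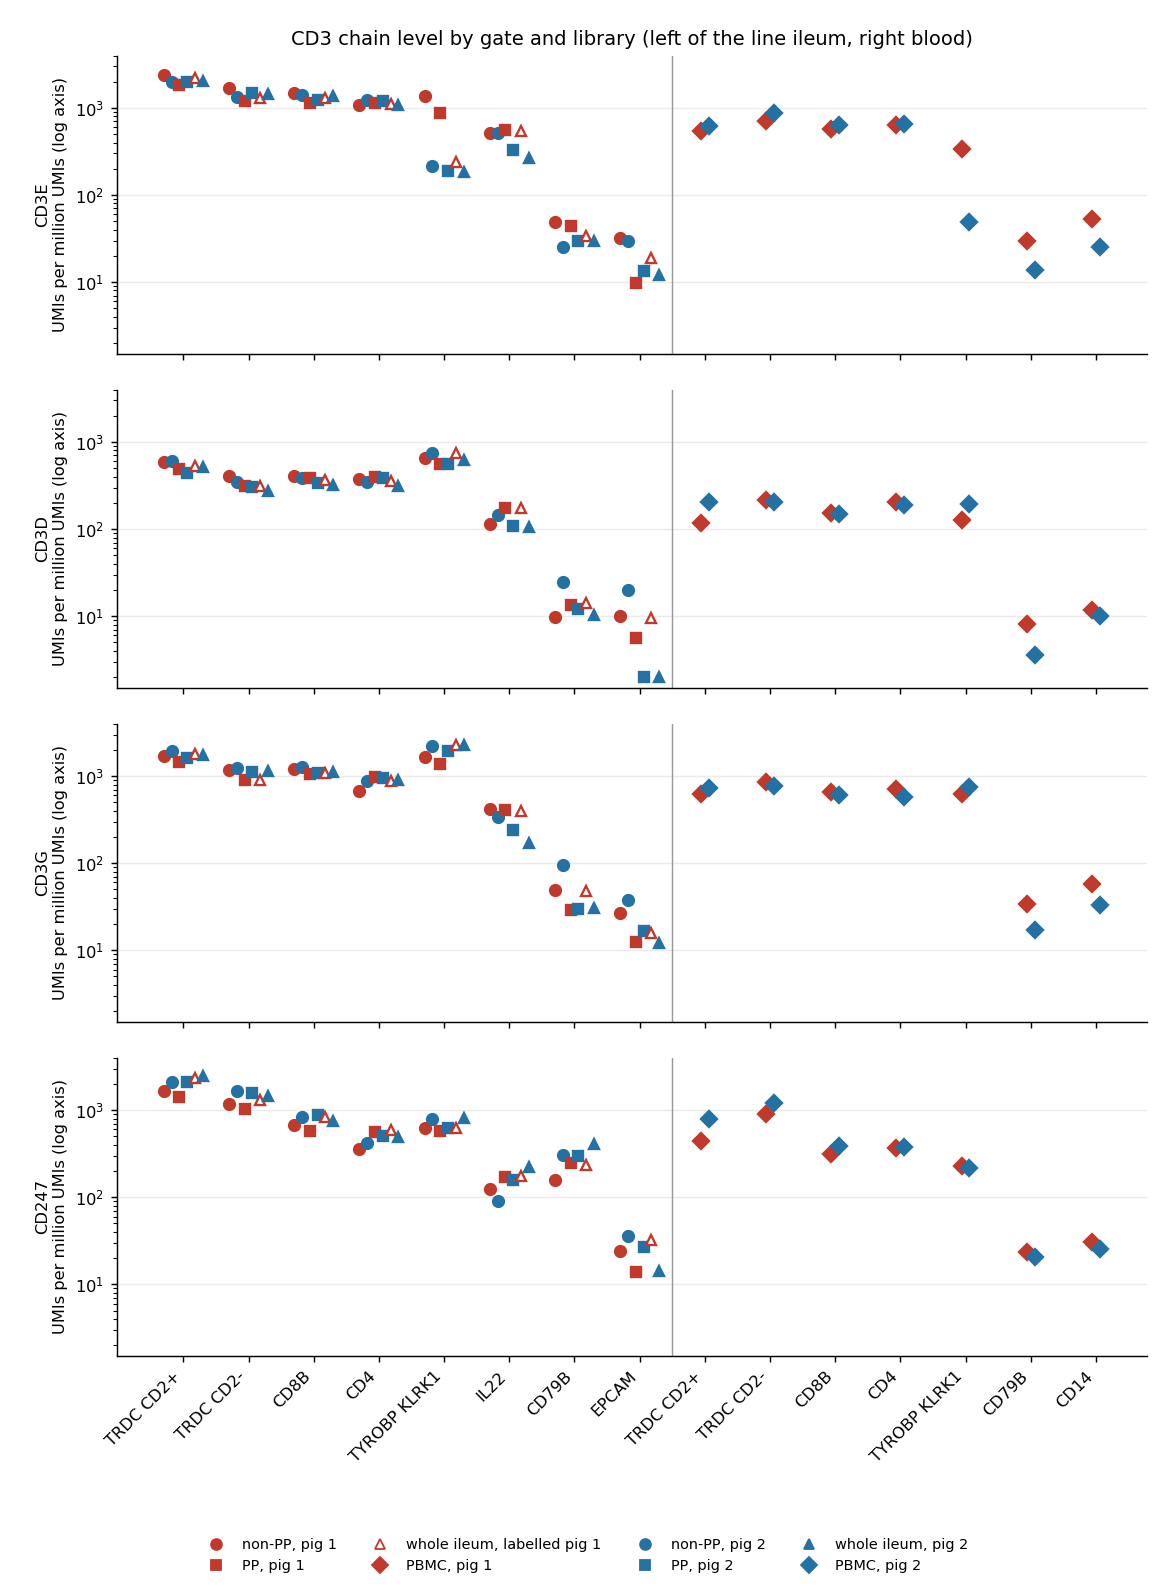
Level of each CD3 chain (CPM, log axis, values under 2 drawn at 2) in each gate, 1 point per library, with red for pig 1, blue for pig 2, an open triangle for the library labelled whole ileum pig 1, and a marker shape for each dissection; ileum stands left of the line and blood right. CD3G and CD3D stay high from the T gates to the TYROBP KLRK1 gate, CD3E splits by library in that gate, and CD247 in the CD79B gate is higher in every ileal library than in blood.

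All 4 chains were abundant in every T gate of every library. Over the 24 ileal combinations of library and T gate, CD3E ran from 1075 to 2382 CPM (median 1356), CD3G from 666 to 1953 (median 1110), CD247 from 359 to 2456 (median 954) and CD3D from 273 to 602 (median 379). Over the 8 combinations in blood, CD3E ran from 536 to 881 CPM (median 636), CD3G from 580 to 848 (median 681), CD247 from 314 to 1210 (median 415) and CD3D from 117 to 213 (median 196). No ileal level of CD3E or CD3D in a T gate overlapped a level in blood, in a comparison of tissues in which 21.0% of all genes were called higher in ileal T cells. These are 3′ tags without a length correction, so the chains are compared between cells and not with each other.

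Background was read in cells that should lack the chains. Epithelial cells, with at least 2 EPCAM UMIs and no PTPRC (CD45), held 9.76 to 32.5 CPM of CD3E and 12.1 to 37.9 of CD3G at a median depth of 8299 to 12289 UMIs per cell. In ileal B cells, at a median depth of 2975 to 4636 UMIs, CD3E stood at 25 to 49.4 CPM and 6.98% to 27.8% of cells held a CD3E UMI. In the T gates, 75.3% to 97.9% of ileal and 74.6% to 90.7% of blood cells held one. Free RNA, read from barcodes with at most 100 UMIs, carried 445 to 1014 CPM of CD3E in ileum and 301 to 318 in blood.

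The order of the 14 gates by scaled mean level differed between the chains. CD3E was highest in the ileal TRDC CD2+ gate, at 2084 ± 202 CPM (SD, n = 2 pigs), followed by the ileal TRDC CD2- gate at 1449 ± 1.59 and the ileal CD8B gate at 1370 ± 31.1, and the values of the pigs did not overlap between these neighbours. CD3G and CD3D instead were highest in the ileal TYROBP KLRK1 gate, at 1917 ± 135 and 657 ± 1.06 CPM, above the TRDC CD2+ gate at 1747 ± 91.8 and 549 ± 8.67. Without the library labelled whole ileum pig 1 this order turned for CD3G in pig 1, at 1599.6 CPM (not scaled) in the TYROBP KLRK1 gate and 1650.3 in the TRDC CD2+ gate, while CD3D was at 637 and 569.7. CD247 was highest in the ileal TRDC CD2+ gate at 1975 ± 235 CPM, and the ileal and the blood TRDC CD2- gates came next at 1369 ± 324 and 1055 ± 231, which overlapped. At the low end of every chain stood the blood CD79B gate, with 23.7 ± 11.9 CPM of CD3E, 6.35 ± 3.33 of CD3D, 27.4 ± 12.1 of CD3G and 23.9 ± 1.43 of CD247.

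The TYROBP KLRK1 gate of the ileum carried CD3γ and CD3δ transcripts at T cell levels or above. T cells in which CD4, CD8B and TRDC went undetected could enter this gate, and their share was not tested. CD3G in the TYROBP KLRK1 gate was 1651 CPM in non-PP, 1368 in PP and 2269 in whole ileum of the libraries labelled pig 1, and 2203, 1940 and 2257 in those of pig 2. Between 83.3% and 96.0% of the gated ileal cells held a CD3G UMI, against 7.84% to 25.6% of the ileal B cells. CD3D ran from 564 to 743 CPM in the same 6 libraries. Against the T gates of the ileum, CD3D was 1.66-fold higher (log2 0.73 ± 0.18, adjusted p = 0.00827) and CD3G was 1.61-fold higher (0.69 ± 0.18, adjusted p = 0.0144), where 7.05% of all genes were called higher. CD247 ran from 582 to 809 CPM and was 1.54-fold lower (-0.63 ± 0.19, adjusted p = 0.0332), where 6.13% were called lower. The T gates entered as a mean, in which the TRDC gates held the most CD247, at 1975 and 1369 CPM (scaled). The TYROBP KLRK1 gate, at 654, lay between the CD8B gate at 775 and the CD4 gate at 495. Without the library labelled whole ileum pig 1, CD3D kept its call (0.67 ± 0.19, adjusted p = 0.0308), while CD3G and CD247 were at 0.57 ± 0.19 and -0.57 ± 0.21 with adjusted p of 0.070 and 0.0995. With either pig left out none of the 4 chains was called. In these and the other values from 1 pig, the spread comes from the groups that are not compared, and the lone sample is assumed to vary like them. With 2 UMIs needed to open a gate, CD3D was at 0.67 and CD3G at 0.60, with adjusted p of 0.0805 and 0.0533. With a share of the free RNA taken off each gate, CD3D kept its call at 0.76 (adjusted p = 0.0101), while CD3G and CD247 were at 0.72 and -0.68 with adjusted p of 0.383 and 0.251.

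CD3E, the chain used as the pan-T cell marker, did not follow CD3D and CD3G in this gate, and its level depended on the library. It stood at 1371 CPM in non-PP and 876 in PP of pig 1, with 242 in the library labelled whole ileum pig 1. In pig 2 it stood at 215 in non-PP, 189 in PP and 181 in whole ileum. In blood it stood at 334 CPM in pig 1 and 49.5 in pig 2. The 3 libraries of pig 1 with few Y-linked UMIs were thus the 3 highest, ahead of all libraries of pig 2 and of the library labelled whole ileum pig 1, which fell just above the ileal libraries of pig 2.

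The same split was seen cell by cell. A CD3E UMI was found in 79.3% of the gated cells in non-PP pig 1 (95% Clopper-Pearson interval 74.0% to 83.9%), in 72.9% in PP pig 1 (58.2% to 84.7%) and in 48.6% in PBMC pig 1 (45.1% to 52.1%). The share was 21.2% in non-PP pig 2 (18.1% to 24.6%), 17.2% in PP pig 2 (9.98% to 26.8%), 17.2% in whole ileum pig 2 (11% to 25.1%), 8.48% in PBMC pig 2 (6.71% to 10.5%) and 20.4% in the library labelled whole ileum pig 1 (15.7% to 25.8%). Intervals cover counting error only. The median depth was 1925 to 2653 UMIs per cell in the 3 high libraries and 2091 to 2821 in the 5 low ones. Thinned to the smallest depth kept, the shares were 69.3%, 58.6% and 33.5% in the 3 high libraries and 4.23% to 13.6% in the other 5. Cells with 3 or more CD3E UMIs made up 57.8%, 50.0% and 12.7% of the gate in non-PP, PP and PBMC of pig 1, and 1.60% to 8.46% in the other 5 libraries.

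**Figure D2:**
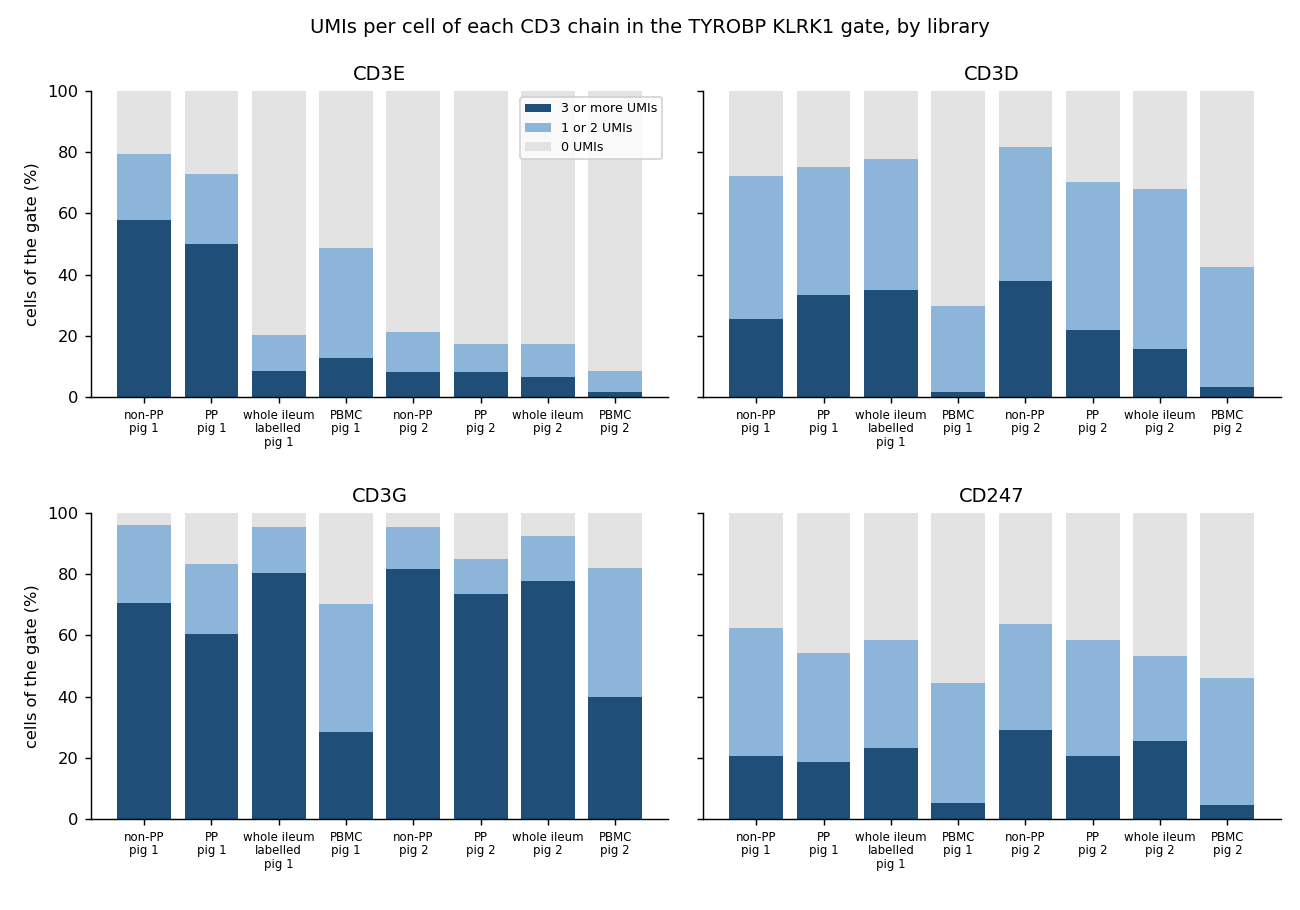
Percent of TYROBP KLRK1 gate cells with 0, 1 or 2, and 3 or more UMIs of each CD3 chain, as stacked bars with 1 bar per library. Cells with a CD3G UMI make up 83.3% to 96.0% in the ileal libraries, whereas for CD3E non-PP and PP pig 1 hold 57.8% and 50.0% of cells with 3 or more UMIs and the other ileal libraries 6.56% to 8.46%.

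Relative to CD3G, CD3E lay below the range of the T gates of the same tissue in all 8 libraries. With the T gates of both tissues pooled, non-PP pig 1 fell within the range. The log2 ratio of CD3E to CD3G UMIs in the TYROBP KLRK1 gate was -0.27 in non-PP, -0.64 in PP and -0.89 in PBMC of pig 1. It was -3.36 in non-PP, -3.36 in PP, -3.64 in whole ileum and -3.91 in PBMC of pig 2, and -3.23 in the library labelled whole ileum pig 1. Across the 24 ileal combinations of library and T gate the ratio ran from 0.009 to 0.71, and across the 8 in blood from -0.28 to 0.21. Cells with CD3G and no CD3E UMI made up 18.9%, 16.7% and 33.4% of the gate in non-PP, PP and PBMC of pig 1, and 70.1% to 76.2% in the other 5 libraries. In the T gates such cells made up 1.82% to 11.7% in ileum and 6.64% to 18.5% in blood.

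The pigs were also set against each other directly, as the log2 ratio of pig 1 to pig 2 in the TYROBP KLRK1 gate less the same ratio averaged over the T gates. This description has no replicates and was added after the values had been seen. CD3E was higher in pig 1 by 2.54 in non-PP, by 2.35 in PP and by 2.93 in PBMC, which placed it at rank 6 of 7051, rank 11 of 2402 and rank 14 of 7959 genes with at least 20 UMIs in the gate. More than a 2-fold excess in pig 1 was found for 3.72% of genes in non-PP, 3.37% in PP and 4.20% in PBMC, and of the chains for CD3E alone. Between the libraries labelled whole ileum, CD3E differed by 0.42 (rank 726 of 4588), where 4.05% of genes passed 2-fold and no chain did. CD3D differed by -0.45 to 0.10, CD3G by -0.38 to 0.10 and CD247 by -0.43 to 0.46 over the 4 pairs of libraries.

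Other markers of the gated cells were read beside this split. FCER1G, the adaptor of several activating receptors, ran from 1572 to 1850 CPM in the ileal gate and 1331 to 1417 in blood, and GNLY (granulysin) from 11986 to 44883 over all 8 libraries. The T cell genes CD5, CD6 and CD28 were at or near 0, with 0 to 26.6, 0 to 14.5 and 0 to 12.0 CPM, in the libraries with high CD3E as in the rest. The 6 T markers together summed to 1350 to 2398 CPM in ileum and 783 to 909 in blood, of which LCK gave 390 to 523 and 408 to 420. B cell markers summed to 6.60 to 37.2 CPM, myeloid markers to 144 to 2358 in ileum and 280 to 935 in blood, and NCR1 (NKp46) to 0 to 28.8 in ileum and 49.3 to 82.4 in blood. In non-PP pig 1, the 159 cells with 3 or more CD3E UMIs held 6.40 CPM of CD5, none of CD6 and 1855 of FCER1G. In non-PP pig 2, the 53 such cells held 97.6 CPM of CD5, 34.5 of CD6 and 1292 of FCER1G. In blood, the 102 such cells of pig 1 and 14 of pig 2 differed from gated cells with no CD3E UMI. Their median depth was 4103.5 to 5234.5 UMIs against 1722 to 2649, and doublets stayed in. The part of depth and of doublets was not tested. CD5 was at 22.7 and 86.4 CPM against 4.99 to 5.61, FCER1G at 864 to 974 against 1450 to 1532. KLRB1 was at 259 to 375 against 724 to 1058. Over the ileal libraries the ranges of these genes overlapped.

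For comparison, cells with TYROBP, KLRK1 and at least 2 TRDC UMIs held CD3E in every library, at 1632 to 2127 CPM in ileum and 448 and 519 in blood, with a UMI in 80.0% to 96.4% of cells. In pig 1 and pig 2 the share was 96.4% and 90.8% in non-PP, 91.5% and 80.0% in PBMC, 88.2% and 86.7% in PP, and 96.4% and 94.7% under the whole ileum labels. It was higher in pig 1 in each pair, with 15 to 98 cells per library. The log2 ratio of CD3E to CD3G UMIs in these cells ran from -0.26 to 0.35 in ileum. In blood it was -0.10 in pig 1 and -0.65 in pig 2, below the T gates of blood in pig 2. The lowest ileal ratio, in non-PP pig 2, was close to the -0.27 of the TYROBP KLRK1 gate in non-PP pig 1.

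Fitted over both pigs, CD3E in the TYROBP KLRK1 gate was 3.01-fold lower than in the T gates of the ileum (-1.59 ± 0.52, adjusted p = 0.0477) and 3.39-fold lower in blood (-1.76 ± 0.53, adjusted p = 0.0336, where 4.04% of genes were called lower). The ileal difference was -2.91 from pig 2 alone and -0.94 from the libraries labelled pig 1 alone. The value for pig 1 includes the library labelled whole ileum pig 1. Without that library, CD3E in the ileal TYROBP KLRK1 gate of pig 1 stood at 1281.4 CPM in place of 814.42. This lay within the range of the ileal T gates of pig 1 without that library, 1134 to 2232.2 CPM. With both pigs in the fit, the ileal difference was -1.04 ± 0.55 without the library labelled whole ileum pig 1 (adjusted p = 0.289). In blood the difference was -3.79 from pig 2 alone and -0.86 from pig 1 alone. The blood call also moved without the library labelled whole ileum pig 1, which changes the shared spread of the fit, to an adjusted p of 0.0641 at -1.79. With free RNA taken off, CD3E was at -1.75 in ileum (adjusted p = 0.249) and at -1.95 in blood (adjusted p = 0.216). CD247 was 2.45-fold lower in the blood gate (-1.29 ± 0.20, adjusted p = 0.000199), at 217 and 227 CPM. CD3D and CD3G in blood stood at -0.16 ± 0.19 and -0.01 ± 0.19 against the T gates, with intervals of -0.54 to 0.23 and -0.39 to 0.37.

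The other genes of T cell receptor signalling fell into 2 directions in these cells. Of 29 such genes tested in the ileum that no gate used, 6 were called higher and 11 lower in the TYROBP KLRK1 gate (7.05% and 6.13% of all genes), with a median log2 fold change of -0.20 (-0.01 over all genes). SYK, the kinase that can take the place of ZAP70, was higher by 3.89 ± 0.32, the Tec kinase TXK by 2.02 ± 0.23 and the phosphatase PTPN6 by 1.45 ± 0.15. The scavenger receptor-like co-receptors CD6 and CD5 were lower by -3.74 ± 0.39 and -3.24 ± 0.37, and the costimulatory receptor CD28 by -3.65 ± 0.60. ZAP70 and the adaptor LAT, which carry the signal on from the CD3 motifs, were lower by -2.06 ± 0.22 and -2.38 ± 0.21, while LCK was not called (-0.04 ± 0.17). In blood 6 were called higher and 12 lower (7.35% and 4.04% of all genes), with a median of -0.30 (0.02 over all genes). SYK was higher there by 3.13 ± 0.32, the phosphatases PTPN22 and PTPN6 by 1.54 ± 0.17 and 1.46 ± 0.15, CD6 was lower by -3.55 ± 0.44, CD5 by -3.37 ± 0.38 and THEMIS, a regulator of T cell selection, by -2.76 ± 0.59. In blood ZAP70 was lower by -1.46 ± 0.21, LAT by -1.03 ± 0.18, and LCK was at 0.29 ± 0.17 (adjusted p = 0.343). FCER1G, the partner of CD3ζ in innate receptors, was higher by 2.51 ± 0.26 in ileum and by 2.5 ± 0.26 in blood. Of the 6 ITAM and other adaptor genes tested outside the gates, 2 were called higher and 2 lower in ileum, and 4 higher and 0 lower in blood, beside the same shares of all genes.

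The IL22 gate of the ileum, taken as a whole, showed another order of the chains, with CD247 the furthest below T cells. Against the T gates, CD247 was 6.69-fold lower (-2.74 ± 0.23, adjusted p = 1.46e-07), CD3G 3.69-fold lower (-1.88 ± 0.22, adjusted p = 1.19e-05) and CD3D 2.89-fold lower (-1.53 ± 0.22, adjusted p = 0.000143), where 1.59% of genes were called lower. CD3E was at -1.72 ± 0.53 (adjusted p = 0.0680), and with pig as a block at -1.75 with an adjusted p of 0.0199. Against the TYROBP KLRK1 gate, CD3D, CD3G and CD247 were lower by -2.26 ± 0.26, -2.57 ± 0.26 and -2.12 ± 0.25 (adjusted p = 7.80e-06, 2.01e-06 and 9.93e-06, with 5.50% of genes called lower), and CD3E was at -0.13 with an interval of -1.32 to 1.06. Of the 29 signalling genes, 0 were called higher and 3 lower against T cells by edgeR (3.65% and 1.59% of all genes), namely the phosphatase PTPRC (-0.67 ± 0.13), LCK (-0.64 ± 0.19) and its inhibitor CSK (-0.43 ± 0.12). ZAP70, LAT and SYK were at -0.08 ± 0.21, -0.08 ± 0.18 and -2.14 ± 1.22 and were not called, and FCER1G was higher by 1.16 ± 0.28.

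That mean was drawn from 2 kinds of cells, which a TYROBP UMI separated. In IL22 gate cells with no TYROBP UMI, 14 to 35 per library, CD3E was 1003, 1031 and 903 CPM in non-PP, PP and whole ileum labelled pig 1, and 841, 1042 and 596 in pig 2. CD3G ran from 376 to 912 CPM, CD3D from 220 to 358 and CD247 from 122 to 470 in these cells. In IL22 gate cells with a TYROBP UMI, 13 to 38 per library, CD3E was 112, 131 and 77.1 CPM in the libraries labelled pig 1, and 0, 14.2 and 22.8 in pig 2. CD3G ran from 7.73 to 139 CPM there, CD3D from 0 to 25.7 and CD247 from 18.7 to 92.3. No chain overlapped between the cells with and without TYROBP, and 56.3% to 82.4% of the cells with TYROBP held none of the 4 chains, against 0% to 21.4% of those without. Each of these values rests on few UMIs, at most 17 per library and chain in the cells with TYROBP.

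**Figure D3:**
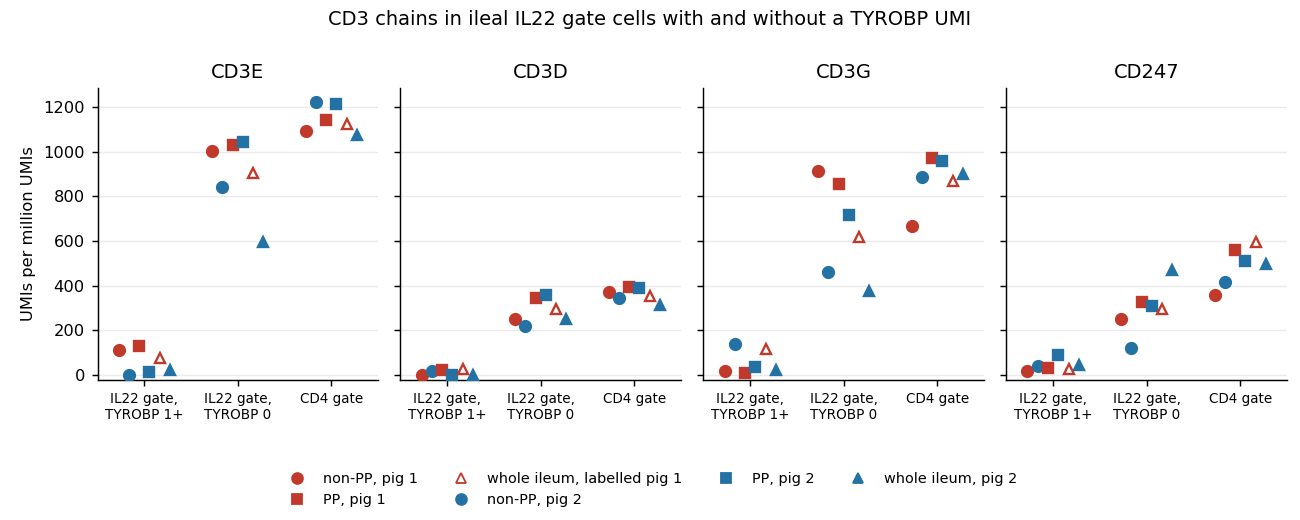
Level of each CD3 chain (CPM) in IL22 gate cells with and without a TYROBP UMI and, for comparison, in the CD4 gate, 1 point per ileal library, red for pig 1, blue for pig 2 and open for the library labelled whole ileum pig 1. For every chain the cells without TYROBP lie above those with it in all 6 libraries, as for CD3E at 596 to 1042 against 0 to 131 CPM.

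Other markers were read in both kinds of cells. KIT, the stem cell factor receptor of innate lymphoid cells, was at 398 to 749 CPM with TYROBP and 0 to 157 without, KLRB1 (CD161) at 1624 to 3715 and 17.6 to 416, and CD5 at 45.6 to 193 and 314 to 638. LCK was at 46.4 to 193 CPM with TYROBP and 366 to 617 without. The 6 T markers together overlapped, at 635 to 1483 CPM with TYROBP and 1293 to 2007 without, as did CD2 at 467 to 1252 and 634 to 1026. The split was chosen after these values had been seen, so fold changes in the cells with TYROBP describe them and are given with no test. Against the T gates, CD3E was lower by -4.56 ± 0.76, CD3D by -5.05 ± 0.40, CD3G by -4.63 ± 0.28 and CD247 by -4.37 ± 0.33. In these cells CD247 was thus not the furthest below T cells, unlike in the whole gate. Against the TYROBP KLRK1 gate, CD3E was lower by -2.96 ± 0.79.

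Among T cells the clearest difference lay in CD247 and separated γδ from αβ cells. In the ileum CD247 was 1660, 1402 and 2364 CPM in TRDC CD2+ cells of non-PP, PP and whole ileum labelled pig 1, and 2134, 2128 and 2456 in pig 2. In TRDC CD2- cells it ran from 1032 to 1645 CPM, in CD8B cells from 574 to 876 and in CD4 cells from 359 to 598, so that γδ and αβ gates did not overlap. The TRDC gates were 2.66-fold above the CD4 and CD8B gates (1.41 ± 0.16, adjusted p = 1.75e-05), where 6.58% of genes were called higher. In blood CD247 was 915 and 1210 CPM in TRDC CD2- cells, 447 and 796 in TRDC CD2+ cells, 314 and 383 in CD8B cells and 369 and 382 in CD4 cells. The blood TRDC gates were 2.17-fold above the αβ gates (1.12 ± 0.16, adjusted p = 0.000428), where 2.28% of genes were called higher. From pig 1 alone the blood difference was 0.87, a value with no spread of its own.

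The other chains moved less. In the ileum, γδ against αβ gates, CD3G was at 0.45 ± 0.17 (adjusted p = 0.0995), with pig as a block at 0.45 with an adjusted p of 0.0419. CD3E was at 0.50 ± 0.41 and CD3D at 0.23 ± 0.17. The SE of CD3E carries the pig split of the TYROBP KLRK1 gate, since the gates share a single estimate of the spread. With the innate gates left out of the fit, CD3E was at 0.50 ± 0.20 (adjusted p = 0.133). In blood CD3E, CD3D and CD3G were at 0.07 ± 0.41, 0.04 ± 0.17 and 0.16 ± 0.17.

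The TRDC CD2- gate stood below the TRDC CD2+ gate in the ileum for each chain, by -0.52 ± 0.58 for CD3E, -0.72 ± 0.24 for CD3D, -0.66 ± 0.24 for CD3G and -0.53 ± 0.23 for CD247. None was called, where 7.65% of genes were called in either direction. With pig as a block CD3D (-0.72, adjusted p = 0.0242) and CD3G (-0.66, adjusted p = 0.0449) were. The ileal TRDC CD2- gate held more RNA of other cells, with 310 to 3142 CPM of epithelial markers against 12.4 to 312 in the TRDC CD2+ gate and up to 11802 CPM of markers of antibody-secreting cells against up to 1036, and their part in the difference was not tested. CD2- here meant no CD2 UMI, at a median depth of 2220 to 2893 UMIs in the ileal gate. CD2 stood at 788 to 955 CPM in the ileal TRDC CD2+ gate. Cells in which CD2 was missed could thus enter the CD2- gate, and their share was not tested. With 2 TRDC UMIs needed, the differences were -0.13, -0.25, -0.22 and -0.15. In blood the direction was the other way, with CD247 higher in the CD2- cells by 0.81 ± 0.23 (adjusted p = 0.0929, 0.0184 with pig as a block), where 1.35% of genes were called in either direction. The other chains were at 0.29 to 0.49.

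Between CD4 and CD8B cells no chain was called. In the ileum CD4 less CD8B was -0.31 ± 0.58 for CD3E, -0.12 ± 0.24 for CD3D, -0.44 ± 0.24 for CD3G and -0.65 ± 0.23 for CD247, none called, where 6.52% of genes were called in either direction. CD247 had an adjusted p of 0.108, and of 0.0307 with pig as a block, at -0.63. In blood the differences ran from -0.02 to 0.32, none called, where 1.15% of genes were. The ileal CD4 gate held 336 to 3083 CPM of myeloid markers, against 58.1 to 530 in the CD8B gate.

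T cells of the ileum held more of every chain than T cells of blood. CD3E was 2.26-fold higher (1.18 ± 0.29, adjusted p = 0.00367), CD3D 2.23-fold (1.16 ± 0.12, adjusted p = 3.58e-07), CD3G 1.75-fold (0.80 ± 0.12, adjusted p = 3.33e-05) and CD247 1.87-fold (0.90 ± 0.12, adjusted p = 5.11e-06). A call this way was common, at 21.0% of all genes. Of the 29 signalling genes 13 were called higher and 9 lower (21.0% and 18.2% of all genes), with a median of 0.30 (0.02 over all genes). The ileal free RNA held 445 to 1014 CPM of CD3E and 149 to 450 of CD3D, the blood 301 to 318 and 80.4 to 82.4. With a share of the free RNA taken off each gate, CD3D and CD247 kept their calls and CD3E and CD3G were at 1.21 ± 0.51 and 0.80 ± 0.32 (adjusted p = 0.0796 and 0.0647). Tissue, cell isolation and library cannot be told apart in this comparison. The T gates of a pig entered the fit as separate samples. Deviations of the same pig in gates of a tissue correlated with a median of 0.315, so the SE may be too small here.

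The TYROBP KLRK1 gate rose in the same direction, with CD3D 4.12-fold higher in ileum (2.04 ± 0.24, adjusted p = 5.25e-06), CD247 2.96-fold (1.57 ± 0.24, adjusted p = 7.14e-05) and CD3G 2.83-fold (1.50 ± 0.24, adjusted p = 0.000173), where 10.7% of genes were called higher. CD3E was at 1.35 ± 0.60 (adjusted p = 0.118), and with pig as a block at 1.37 with an adjusted p of 0.0460. Whether the gap between innate-like and T cells differed between the tissues was tested as an interaction. CD3D differed by 0.89 ± 0.27 (adjusted p = 0.0819, 0.0303 with pig as a block), CD3G by 0.70 ± 0.27, CD247 by 0.67 ± 0.26 and CD3E by 0.17 ± 0.65. No chain was called, where 2.96% of genes were called in either direction.

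**Figure D4:**
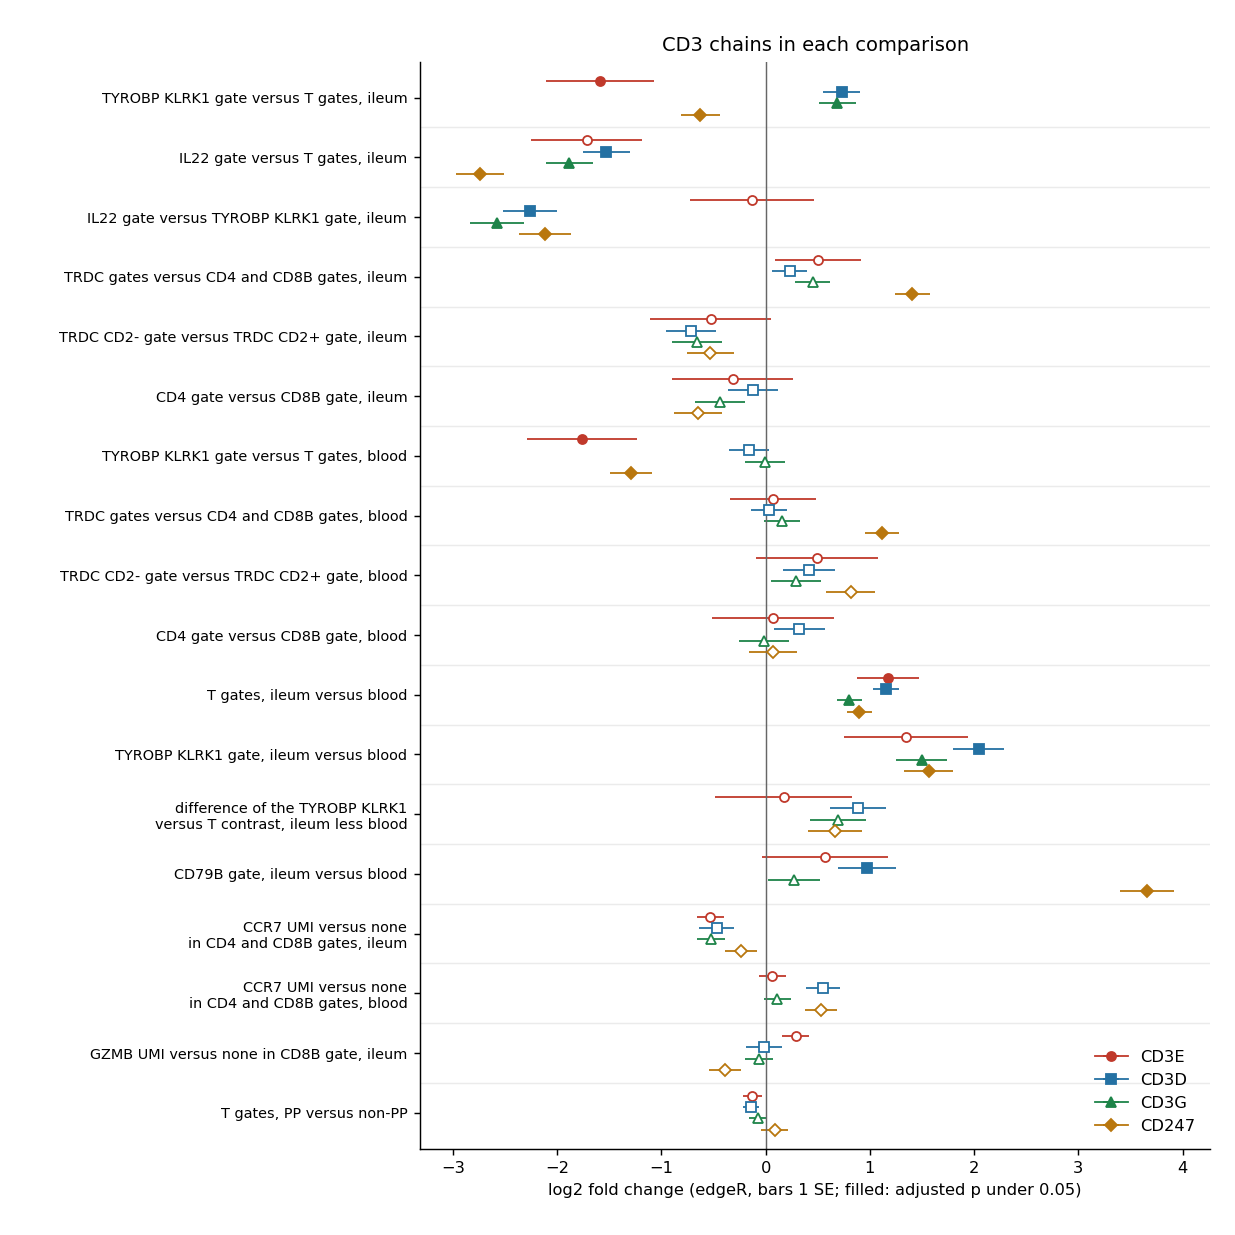
Log2 fold change of each CD3 chain in each comparison, with its SE as the bar; filled points mark an adjusted p under 0.05 in edgeR over all genes tested. CD3E lies at -1.59 and CD3D and CD3G at 0.73 and 0.69 for the ileal TYROBP KLRK1 gate against T gates, and CD247 at 3.66 for ileal against blood B cells.

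CD247 was found outside T and innate cells, in B cells of the ileum. In the CD79B gate it was 158, 244 and 235 CPM in non-PP, PP and whole ileum labelled pig 1, and 310, 296 and 410 in pig 2. In blood it was 23.2 and 20.6 CPM. The non-PP gates held 18 and 43 cells and the other ileal gates 1377 to 3736. A CD247 UMI was found in 50.0% to 71.5% of ileal and in 7.77% and 9.03% of blood B cells. Thinned to the smallest depth kept, the shares were 20.7% to 43.7% and 2.41% and 2.61%. Of the other chains, CD3E stood at 25 to 49.4, CD3G at 29.0 to 94.9 and CD3D at 9.88 to 25 CPM in ileum, and the highest CD3G level was that of the 43 cells in non-PP pig 2. The comparison of ileal with blood B cells was added after these values had been seen, so that its results are a description of them. CD247 was 12.7-fold higher in ileum (3.66 ± 0.26), CD3D 1.96-fold (0.97 ± 0.28), CD3E was at 0.57 ± 0.61 and CD3G at 0.27 ± 0.25, where 19.6% of genes were called higher. With 10% free RNA taken off, no UMI of CD3E, CD3D or CD3G was left in the B cells of either tissue.

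Per CD3E UMI, the ileal CD79B gate held 3.20 to 13.9 CD247 UMIs, the free RNA 0.571 to 1.22 over all 8 libraries and the blood CD79B gate 0.774 to 1.49. T markers summed to 111 to 190 CPM in the ileal B cells and B markers to 1196 to 1577. Of the signalling genes, LCK was higher in ileal than in blood B cells by 1.75 ± 0.23, CD5 by 1.14 ± 0.40 and CSK by 0.52 ± 0.13, and 9 of the 29 were called lower, where 16.2% of all genes were.

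**Figure D5:**
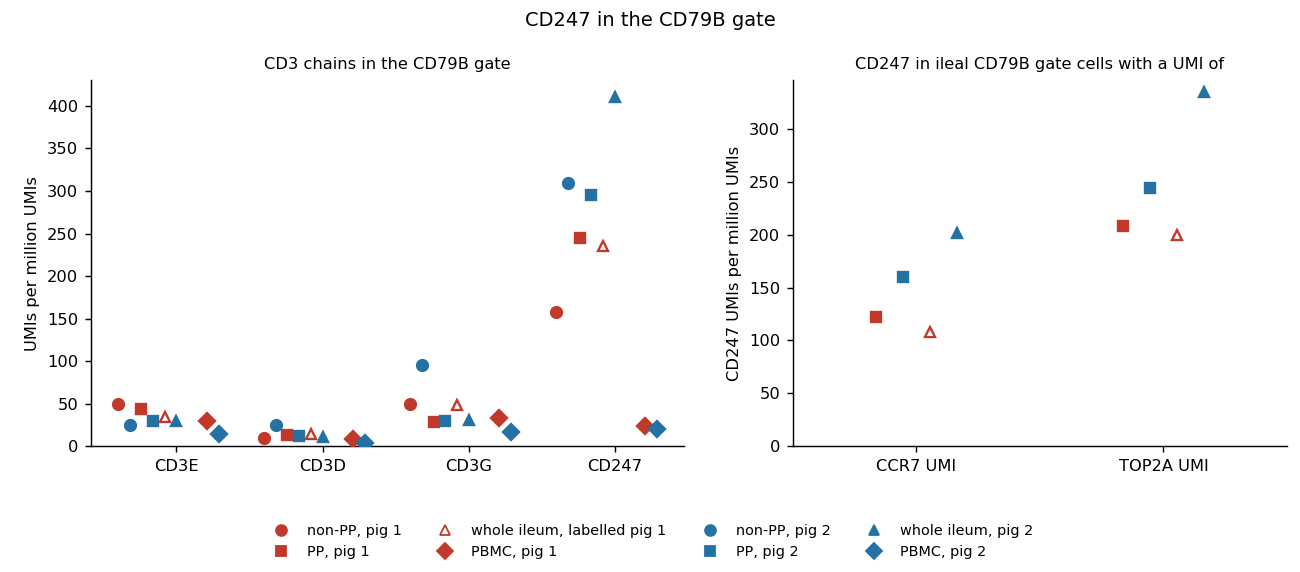
Left, the 4 CD3 chains in CD79B gate cells (CPM), 1 point per library; right, CD247 in subsets of the ileal gate with a CCR7 or a TOP2A UMI (CPM), in libraries with at least 20 such cells. CD247 lies at 158 to 410 CPM in ileum against 20.6 and 23.2 in blood, and in the ileum is lower in cells with CCR7 than in cells with TOP2A in each of the 4 libraries shown.

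Within the ileal B cells CD247 varied with markers of state. In the 4 libraries of PP and whole ileum, cells with a UMI of TOP2A, a marker of dividing cells, held 208 and 200 CPM of CD247 in the libraries labelled pig 1 and 245 and 335 in pig 2. Cells with CCR7, the homing receptor of resting lymphocytes, held 122 and 108 CPM, and 160 and 201. Cells with TOP2A were above cells with CCR7 in each of the 4 libraries. Both subsets lay below the whole ileal gate. Over all ileal libraries labelled pig 1, the whole gate held 241 CPM, cells with TOP2A 205.5 and cells with CCR7 119. In pig 2 these levels were 356, 292 and 176 CPM.

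The state of αβ T cells was read in the same way. In the ileum, CD4 and CD8B gate cells with a CCR7 UMI stood below those without by -0.53 ± 0.13 for CD3E (adjusted p = 0.0681), -0.53 ± 0.13 for CD3G (adjusted p = 0.0826), -0.47 ± 0.16 for CD3D and -0.23 ± 0.15 for CD247. None was called, where 1.58% of genes were called in either direction, and with pig as a block CD3E, CD3D and CD3G were, at adjusted p of 0.0156, 0.0480 and 0.0225. In blood the chains leaned the other way, CD3D at 0.55 ± 0.16 (adjusted p = 0.0626, 0.00937 with pig as a block) and CD247 at 0.53 ± 0.15 (adjusted p = 0.0565, 0.00606 with pig as a block), with CD3E at 0.07 ± 0.13 and CD3G at 0.11 ± 0.13. None was called without the block, where 7.75% of genes were called in either direction. Splitting the ileal CD8B gate by GZMB (granzyme B) gave no call in any chain, with values of -0.39 to 0.29. There 0.0467% of genes were called in either direction and 595 of 8571 had an unadjusted p under 0.05.

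Between dissections the chains did not move detectably. The T gates of PP stood at -0.13 ± 0.09 for CD3E, -0.14 ± 0.08 for CD3D, -0.07 ± 0.09 for CD3G and 0.09 ± 0.13 for CD247 against those of non-PP. The intervals ran from -0.31 to 0.05, -0.29 to 0.01, -0.25 to 0.10 and -0.18 to 0.35. None was called over 7647 genes, where 3.27% were called in either direction. The T gates of a library entered as separate samples, so these intervals may be too narrow.

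Over the 14 gates the chains followed each other to different degrees. The Pearson correlation of their log2 levels was 0.99 for CD3D with CD3G, 0.92 for CD3E with CD3D, 0.91 for CD3E with CD3G and 0.83 to 0.85 for CD247 with the others. Among named genes the pattern most like that of CD3E was ARHGEF16 (0.948), and SKAP1 (0.938) and ZAP70 (0.928) were also among the 5 most alike. For CD3D it was SKAP1 (0.958), EPHB6 (0.955) and SLA2 (0.953), for CD3G SLA2 (0.966), NCALD (0.957), EPHB6 (0.952) and BTBD11 (0.951), and for CD247 RAB19 (0.893), FLYWCH1 (0.887), NLRC3 (0.874) and ALAD (0.870). These are descriptions over gates that share libraries and free RNA.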

How the data were processed

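The authors deposited raw UMI counts per gene and barcode for 8 libraries, made with Cell Ranger against Sscrofa11.1 with a modified Ensembl annotation, from before their removal of ambient RNA and doublets. Each library appears in the labels as 4 runs, which were counted as 1 replicate. Cells with at least 1250 UMIs, at least 550 genes and at most 12.5% mitochondrial UMIs were kept, and doublets stayed in (scanpy 1.11.5 scored and removed them in an alternative). UMIs were summed per pig, tissue and gate with at least 20 cells and tested in edgeR 4.0.16 (quasi-likelihood, TMM, R 4.3.3), 28 sums and 10084 genes in the first fit, with Benjamini-Hochberg adjustment. A second fit split gates by CCR7 and GZMB (8571 genes), and another used sums per library (7647 genes). The p-values rest on a spread estimated over all gates of a fit, in which gates of the same 2 pigs entered as separate samples. With a pig left out of the groups compared, the spread came from the other groups, and the lone sample was assumed to vary like them. Alternatives included DESeq2 1.42.0, other filters, stricter gates, 10% free RNA taken off, and each pig left out.

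The members and gene lists were chosen with earlier results of these data known. Named genes were the 4 chains, the 3 signalling genes with the largest called change each way in 3 contrasts, LCK, ZAP70, LAT, SYK and FCER1G, and the 5 genes most alike per chain, of which those without a symbol are not named. A gene that had to be at 0 in the TYROBP KLRK1 gate, a gene of those most alike and a subset of the B cells are not reported here. By the labels, replicate numbers mark the same pig and so pair the samples. This is in doubt for the library labelled whole ileum pig 1, which the fits with pig as a block include. Deviations of the same pig in different gates correlated with a median of 0.179 over 91 pairs (range 0.051 to 0.50). Within a tissue the median was 0.315, with 40 of 42 pairs over 0.1. Blocked values are given where they change a call. Depth was 21134542 to 40111934 UMIs per library. The model was also run on simulated counts, the outcome of which is not given and lends no support to the p-values.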

Additional observations from a re-analysis of the deposited data

Results flagged for a closer look

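Of the 32 groups of 6 ileal libraries tested for a value far from the others, 3 had such a value, and chance gives about 1 in 20. CD3G in the CD4 gate was lowest in non-PP pig 1 at 666 CPM, with the next at 869 and the highest at 973, in a gate of 45 cells. In the CD79B gate of 43 cells in non-PP pig 2, CD3D was highest at 25 CPM, with the next at 14.3, and CD3G was highest at 94.9 CPM, with the next at 49.4.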

How the results depend on the processing

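Counts of chains called out of 4 stayed within 1.5 times the main count in 169 of 210 alternatives, rose further in 30 and fell further in 11. A single chain could still cross the threshold within the 169. Of the values of single chains, 721 kept their direction and side of the threshold. Another 57 passed the threshold only in the alternative, 28 only in the main test, and 34 turned in sign. The cause of these changes was not tested, other than where fewer samples were used.

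For the ileal TYROBP KLRK1 gate against T gates, called in 4 chains, 1 chain was called without the library labelled whole ileum pig 1, 2 with 2 UMIs to open a gate and 1 with free RNA taken off; in blood, where 2 were called, 1 was called without that library and 1 with free RNA taken off. For T cells of ileum against blood, 2 of 4 chains kept a call with free RNA taken off. With each pig left out in turn, 0 to 0 chains were called for the ileal TYROBP KLRK1 gate against T gates, 1 to 2 in blood, 2 to 3 for the IL22 gate against T gates, 3 to 3 for T cells and 3 to 4 for TYROBP KLRK1 cells of ileum against blood, 1 to 2 for B cells of ileum against blood, and 0 to 1 for γδ against αβ cells of blood.

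More chains were called elsewhere. For γδ against αβ cells of the ileum, with 1 chain called, the count was 2 by DESeq2, 3 with no filter on low counts, 2 with the replicate block, 2 with 2 UMIs and 2 with sums per library. For ileal CD2- against CD2+ γδ cells, with 0 called by edgeR, it was 4 with no filter, 2 with the replicate block, 1 with doublets removed, 3 with sums per library and 3 with KLRK1 and FCER1G at 0 in the CD2- cells. In blood, also with 0, it was 1 by DESeq2, with no filter, with the replicate block and with KLRK1 and FCER1G at 0. For CD4 against CD8B cells of the ileum it was 1 in place of 0 with no filter, with the replicate block and with sums per library. For the interaction of tissue it was 1 in place of 0 by DESeq2, with no filter, with the replicate block, with doublets removed and with sums per library. For CCR7 in the ileum, in place of 0, it was 2 by DESeq2, 1 with no filter, 3 with the replicate block and 3 with sums per library. For CCR7 in blood, in place of 0, it was 2 by DESeq2, 1 with RLE normalization, 2 with the replicate block and 1 with doublets removed. With the replicate block, 4 chains in place of 3 were called for the IL22 gate against T gates and for TYROBP KLRK1 cells of ileum against blood, and no other count changed.

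Values that turned in sign were not called. CD3E in the IL22 against the TYROBP KLRK1 gate was 0.078 with 1 IL22 UMI, and -0.60 to 0.99 with a pig left out. In the blood TYROBP KLRK1 gate against T gates, CD3G was 0.018 with no filter and 0.0094 with sums per library, and with a pig left out -0.18 to 0.17, while CD3D was -0.39 to 0.053. For CD4 against CD8B in blood, CD3G was 0.0077 by DESeq2, 0.0092 with RLE normalization, 0.019 without the library labelled whole ileum pig 1, 0.0054 with doublets removed, 0.0073 with free RNA taken off, 0.00046 with sums per library and 0.0029 with the innate gates left out of the fit. There CD3E was -0.090 and CD247 -0.054 with 2 UMIs, and with a pig left out CD3G was -0.089 to 0.073 and CD247 -0.033 to 0.21. For γδ against αβ cells of blood, CD3E was -0.020 to 0.13 and CD3D -0.21 to 0.23 with a pig left out. So were CD3E of the interaction at -0.022 to 0.89, CD3G of B cells at -0.12 to 0.67 and CD3E of CCR7 in blood at -0.068 to 0.17. For GZMB, CD3D was 0.065 and CD3G 0.017 with no filter, CD3D 0.073 without the library labelled whole ileum pig 1 and 0.014 with free RNA taken off, and with a pig left out CD3D was -0.035 to 0.15 and CD3G -0.073 to 0.030. For PP against non-PP, CD247 was -0.12 with 2 UMIs and CD3G 0.058 with free RNA taken off, and with a library left out CD247 was -0.19 to 0.32 and CD3G -0.17 to 0.032.

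Thinned to the smallest depth kept, the share of TYROBP KLRK1 cells with CD3E was 69.3% in non-PP pig 1, 58.6% in PP pig 1, 33.5% in PBMC pig 1, 13.6% in non-PP pig 2, 4.23% in PBMC pig 2 and 13.2% in the library labelled whole ileum pig 1. The share of CD79B cells with CD247 was 20.7% and 34.4% in non-PP of pig 1 and 2, 28.7% and 33.7% in PP, 27.6% and 43.7% in whole ileum and 2.61% and 2.41% in PBMC.

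Taking off free RNA left no UMI of CD3E, CD3D or CD3G in the B cells of either tissue, and none of CD247 in those of blood. No value is therefore given there. In ileal B cells 4007 CD247 UMIs were left in the libraries labelled pig 1 and 8302 in pig 2. With 2 UMIs the ileal CCR7 and GZMB splits held too few cells. The counts of all genes called moved by more than 1.5 times in 79 of 210 alternatives. Limits are set by 2 pigs, by a library whose label is in doubt and by gates of as few as 13 cells.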
